A study of Mus musculus with 5 samples.

Results

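The genes described here are 10 genes of mucus and of the goblet cell, the mucus-secreting cell of the airway lining, in whole lungs of mice with allergic airway inflammation. They are Clca1, Muc5ac, Muc5b, Muc4, Tff2, Agr2, Spdef, Itln1, Bpifa1 and Creb3l4. They were chosen by name: a gene entered where a probe of the array named that gene alone and was measured on 4 arrays or more. The 10 genes were measured by 10 probes, out of 9727 genes and 17280 probes in all. An 11th probe, the second one for Muc4, had no value on any array.

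The tested samples were lungs of 5 C3H mice (an inbred strain) that were sensitised and then challenged with ovalbumin, an allergen from egg white (ova mice), and each was hybridised on its own 2-colour array against a pool of lungs from control C3H mice. RNA of both sides was amplified before labelling. The number of animals in the pool, what the controls received, the age of the mice, and the days and route of sensitisation and challenge are unknown here. The values are log ratios of the ova mouse and the pool on 1 array, in the authors' processed form, taken here as log2 and centred on the median of each array. Neither the log base nor which of both samples is the numerator is stated, so a gene is described as lying on the negative or the positive side of the ratio. In the titles the ova mouse comes first, but no dye or numerator settles the direction: a negative value is a lower level in ova lungs if the ova mouse is the numerator, and a higher one if the pool is. All 10 pairs of arrays correlated above 0 over probes (Pearson's r between 0.64 and 0.83), so the arrays ran the same way. The log ratio gives no level, so whether goblet cell RNA was abundant in either sample could not be read from these values.

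Airway mucus is a gel of large glycoproteins, the secreted mucins, which goblet and club cells fold and cross-link in the endoplasmic reticulum, coat with sugar chains in the Golgi, pack into granules and release onto the airway surface. Interleukin-13, acting through its receptor and the transcription factor STAT6, turns airway secretory cells toward the goblet cell state, with SPDEF as a main transcription factor of that state. In mouse models of allergic airway inflammation, goblet cell metaplasia with high Clca1 and Muc5ac RNA is a well-known feature. In whole lung, more or fewer goblet cells cannot be told apart from more or less RNA per cell.

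Of the 10 genes, 8 lay past the threshold (limma adjusted p under 0.05) below 0 and 2, Bpifa1 and Creb3l4, above it. Over all 9727 genes tested, 15.0% passed below 0 and 12.3% above it (27.3% on either side). The 10 genes were picked with such results known, so their count is a description of the choice. The sizes, spread and order that follow describe the same chosen genes. Every one of the 10 genes kept 1 side in each mouse that measured it. The median of the 10 mean log ratios was -1.14, against 0.00 over all genes tested.

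**Figure D1:**
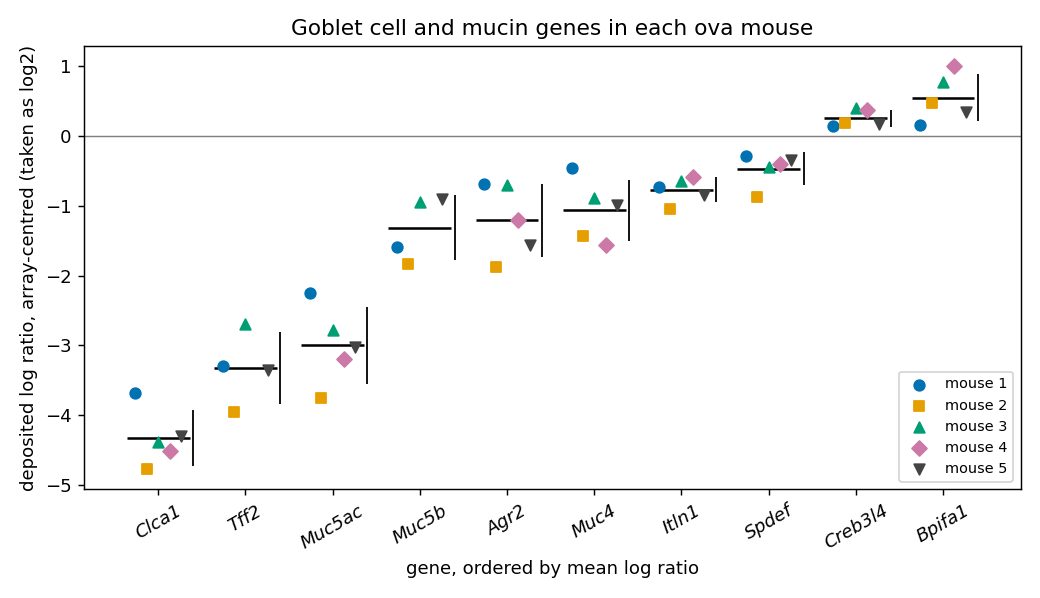
Array-centred log ratio (taken as log2) of each goblet cell and mucin gene in each of the 5 ova mice against the control pool; symbols are mice, the horizontal bar is the mean and the vertical bar 1 SD on either side of it. Clca1, Tff2 and Muc5ac lie below -2 in every mouse with a value, and Bpifa1 and Creb3l4 lie above 0 in all 5.

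Clca1, a secreted protease-like protein of goblet cells that shapes the mucus network, had the largest ratio of the 10. It is the mouse gene once called Clca3 or gob-5 (NCBI gene 23844), on chromosome 3. Its log ratios were -3.69, -4.77, -4.38, -4.52 and -4.29 in ova mice 1 to 5. All 5 mice lay far from 0, with mouse 2 the largest in size and mouse 1 the smallest. The mean was -4.33 ± 0.40 (SD, n = 5; limma adjusted p = 4.01e-06), a difference of 20.1-fold if the base is 2 and of 75.9-fold if it is e. Only 1 of the 9727 genes, Retnla, had a mean further on the negative side, and on the single arrays Clca1 ranked between 2 and 5 from the negative end. Its SD was 0.093 of the size of its mean, the smallest such share among the 10 genes.

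Tff2 encodes a trefoil peptide, a small protein secreted with mucins that stabilises the mucus layer and takes part in epithelial repair. Its log ratios were -3.29, -3.96, -2.70 and -3.35 in mice 1, 2, 3 and 5, and mouse 4 had no value. Mouse 2 was again the largest in size, and here mouse 3 was the smallest. The mean was -3.32 ± 0.51 (SD, n = 4; limma adjusted p = 0.000202), the 7th most negative of all genes and 10.01-fold in size under base 2. The neighbouring trefoil gene Tff3, which on chromosome 17 lies beside Tff2, had a mean of -0.22 ± 0.23 (n = 5) and did not pass (adjusted p = 0.0907).

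Among the mucins, Muc5ac and Muc5b encode the gel-forming mucins of the airway and are neighbouring genes on chromosome 7. Muc5ac, the mucin typical of goblet cells induced by allergen, had log ratios of -2.25, -3.75, -2.78, -3.19 and -3.02 in mice 1 to 5. Muc5b, the mucin made by airway secretory cells and glands and needed for clearance of the airway, had -1.58, -1.84, -0.94 and -0.91 in mice 1, 2, 3 and 5, with no value in mouse 4. The Muc5ac value closest to 0, -2.25 in mouse 1, was beyond the largest in size for Muc5b, so the values of both genes did not overlap.

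The means were -3.0 ± 0.55 for Muc5ac (SD, n = 5; limma adjusted p = 0.000152; 10th from the negative end) and -1.32 ± 0.47 for Muc5b (n = 4; adjusted p = 0.00235; 58th). Within a mouse, the ratio of Muc5ac minus that of Muc5b was negative in 4 of 4 mice, between -2.11 and -0.67, with a mean of -1.63 ± 0.65. Whether the probes of both genes compress ratios alike was not tested. Muc5b also differed from Muc5ac in its order over mice: mouse 1 had the second largest size for Muc5b and the smallest for Muc5ac.

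Muc4, a mucin anchored in the cell membrane, had log ratios of -0.46, -1.43, -0.89, -1.56 and -0.995 in mice 1 to 5. Mouse 1 was the smallest in size and mouse 4 the largest, and the values overlapped those of Muc5b. The mean was -1.06 ± 0.44 (n = 5; limma adjusted p = 0.0024). Within a mouse, the ratio of Muc5ac minus that of Muc4 was negative in 5 of 5 mice and averaged -1.93 ± 0.26 (SD). The other mucin genes measured did not share this. Muc2, the intestinal gel-forming mucin next to Muc5ac on chromosome 7, had -0.16 ± 0.11 (n = 4; adjusted p = 0.104), and the membrane mucin Muc1 had -0.02 ± 0.15 (n = 4; adjusted p = 0.846). The list read beside these mucins held 7 measured genes, the mucins Muc1, Muc2, Muc13, Muc15 and Muc16 beside Emcn and Mcam. Of these 7, 0 passed below 0 in limma and 1 above it, and the median of the list was -0.02. Without adjustment 1 gene of that list, Muc2, would pass below 0 at 0.05. The gene that passed above 0 was Emcn, an endothelial sialomucin (0.35 ± 0.15, n = 5; adjusted p = 0.00614).

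Among the proteins that make or control mucus, Agr2, a disulfide isomerase of the endoplasmic reticulum needed for mucin folding, had log ratios of -0.69, -1.88, -0.70, -1.20 and -1.57 in mice 1 to 5. The mice split widely, with mice 1 and 3 close together at the small end. Its mean was -1.21 ± 0.53 (n = 5; limma adjusted p = 0.00269). Spdef, the ETS transcription factor of goblet cell differentiation, had -0.28, -0.87, -0.44, -0.40 and -0.34 in mice 1 to 5. The value of mouse 2 stood apart from the others. Spdef had a mean of -0.47 ± 0.23 (n = 5; adjusted p = 0.00653), 1.38-fold in size under base 2 and 469th from the negative end. The ratio of Agr2 was beyond that of Spdef in 5 of 5 mice, by 0.26 to 1.23.

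Itln1, intelectin-1, a secreted lectin that binds microbial sugars, had log ratios of -0.73, -1.04, -0.64, -0.59 and -0.84 in mice 1 to 5. These lay close together, with a mean of -0.77 ± 0.18 (n = 5; limma adjusted p = 0.000713). Itln1 has close relatives in some mouse strains, and which copies C3H carries and whether the probe reads them was not tested.

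Both genes on the positive side were small in size. Bpifa1, a secreted defence protein of the upper and large airways also called SPLUNC1, had log ratios of 0.16, 0.48, 0.77, 1.00 and 0.34 in mice 1 to 5. The values spread over most of their size, with mouse 1 lowest and mouse 4 highest, and its SD was 0.611 of the mean, the largest such share among the 10. The mean was 0.55 ± 0.34 (n = 5; limma adjusted p = 0.0108), 160th from the positive end. Creb3l4, a membrane-bound transcription factor of the CREB3 family, had 0.15, 0.18, 0.40, 0.38 and 0.17 in mice 1 to 5. Mice 3 and 4 lay together above the other 3. Its mean was 0.26 ± 0.12 (adjusted p = 0.0127), a difference of 1.19-fold under base 2, and on the single arrays it stood between the 79.0th and the 95.0th percentile of all genes.

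**Figure D2:**
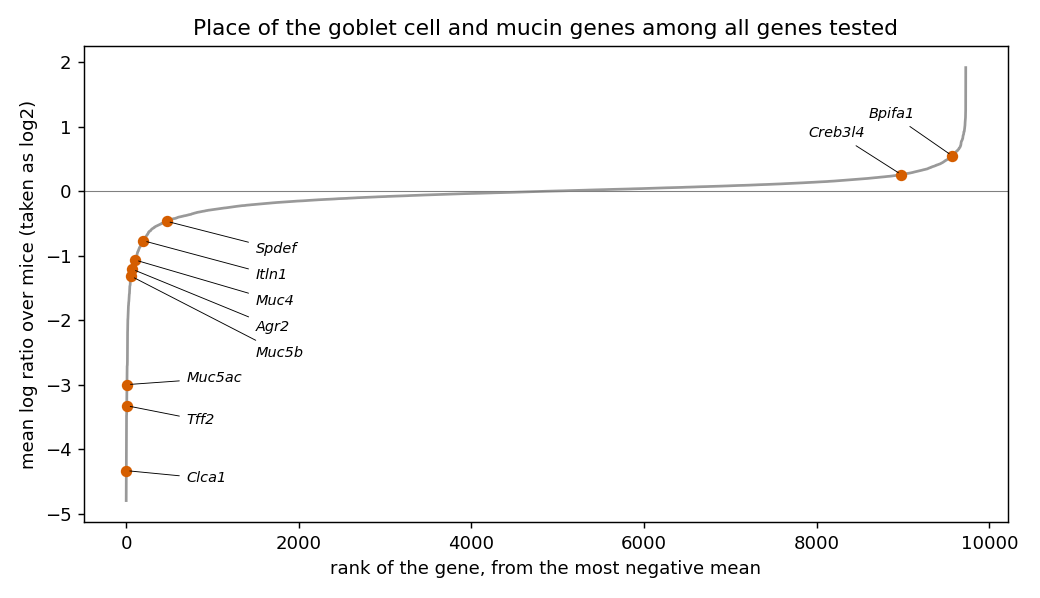
Mean log ratio over mice (taken as log2) of all 9727 genes tested, in order from the most negative, with the goblet cell and mucin genes as points. Clca1, Tff2 and Muc5ac hold ranks 2, 7 and 10, while Spdef at rank 469 and Creb3l4 sit where the curve flattens toward 0.

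In order of mean log ratio the genes ran Clca1, Tff2, Muc5ac, Muc5b, Agr2, Muc4, Itln1, Spdef, Creb3l4 and Bpifa1. Not all neighbours in this order were apart beyond their spread. Clca1 was below Tff2 in 4 of 4 mice, by 0.40 to 1.68. Tff2 was below Muc5ac in 3 of 4 mice, with a mean difference of -0.38 ± 0.48. Agr2 and Muc5b each were the more negative in 2 of 4 mice, and Muc4 was above Agr2 in 3 of 5 mice (mean difference 0.14 ± 0.40). Itln1 was below Spdef in 5 of 5 mice, by 0.18 to 0.50, and Bpifa1 was above Creb3l4 in 5 of 5 mice, by 0.01 to 0.62. These differences are given as values with no test, because the genes were chosen with their ratios known.

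The mice were not alike in the size of their ratios, which bears on the spread of each gene. The SD over all probes was 0.20 on the array of mouse 1 and between 0.32 and 0.38 on those of mice 2 to 5. Among 755 genes past the threshold with a mean beyond 0.5 in size in mice 2 to 5, mouse 1 had 0.453 of that mean (median, with quartiles of 0.285 and 0.621). Of the 10 goblet cell and mucin genes, 5 stood above those quartiles in mouse 1 and 1 below them. The 755 genes were not matched in size to the 10 genes. Muc5b had 1.29 of the mean of the other mice, Tff2 0.987, Itln1 0.934, Clca1 0.821 and Muc5ac 0.707.

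Those 5 shares lay above those of 99.9%, 97.0%, 95.8%, 91.5% and 83.7% of the 755 genes. Spdef (0.552), Creb3l4 (0.529), Agr2 (0.518) and Muc4 (0.374) lay inside the quartiles, and Bpifa1 (0.250) lay just below them. Read the same way, each mouse against the mean of the others, mouse 5 went the other way: 8 of the 10 genes (all but Agr2 and Itln1) lay below the lower quartile of 530 such genes and 0 above the upper one. There the background genes had a median share of 1.33 with quartiles of 1.11 and 1.54, against 0.990 for Clca1, 1.01 for Muc5ac and 0.625 for Muc5b. In mouse 3, 5 genes lay below the quartiles and 2 above them, in mouse 2, 1 and 5, and in mouse 4, 0 and 3 of 8 measured. The goblet cell and mucin genes were counted without the limit of 0.5 in size set for the background genes. In the mean of the others, Creb3l4 fell short of that limit for each mouse. Spdef did so for mice 2 to 5, and Bpifa1 for mice 3 and 4. The shares of these genes rest on small means. The background genes were also not matched in size to Clca1, Tff2 and Muc5ac. Of other genes with large ratios, Retnla had -4.41 in mouse 1, -4.82 in mouse 5 and -5.17 to -4.58 in mice 2 to 4. In the same order, Rnase2a had -3.23, -4.48 and -4.78 to -4.15, and Reg3g -2.20, -2.95 and -3.42 to -2.24. Slc26a4 had -2.19, -3.41 and -3.87 to -3.28, and Arg1 -2.44, -4.645 and -4.89 to -2.27. Whether such shares are particular to the goblet cell genes was not tested. The cause of these differences was not tested. At the large end, mouse 2 had the largest size for Clca1, Tff2, Muc5ac, Muc5b, Agr2, Spdef and Itln1, and mouse 4 for Muc4.

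**Figure D3:**
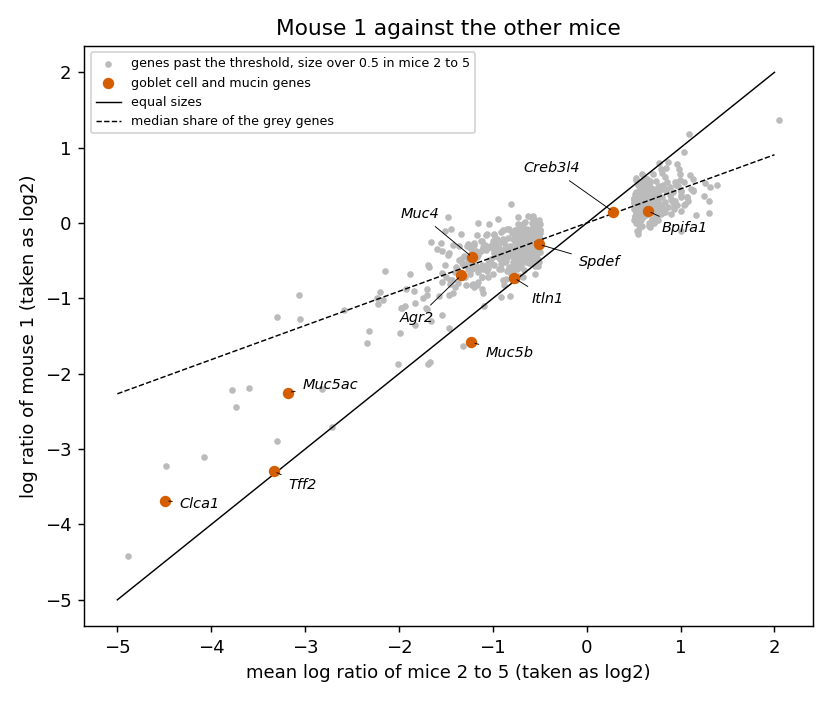
Log ratio of mouse 1 against the mean log ratio of mice 2 to 5 (both taken as log2); grey points are the 755 genes past the threshold with a size over 0.5 in mice 2 to 5, orange points the goblet cell and mucin genes. Muc5b lies beyond the solid line of equal sizes, Tff2 and Itln1 lie near it, and Agr2, Spdef and Creb3l4 lie near the dashed line of the median share, 0.453.

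Genes of the mucus pathway were then read from lists by role, outside the 10 genes: 112 were measured, of which 33 passed below 0 and 15 above it. Over all genes tested, 15.0% passed below 0 and 12.3% above it. Each list count that follows is to be read beside these shares. The count of 15 above 0 was near the share of all genes. Without mouse 3 the count above 0 was 9, and the other 4 ways of leaving out a mouse gave up to 14. The list of mucin folding in the endoplasmic reticulum, where Agr2 works, had 11 of 22 measured genes past the threshold below 0 in limma and 0 above it (13 and 0 without adjustment), and a median of -0.22. These included Manf, a secreted stress-response protein (-0.98 ± 0.26), the calcium-binding chaperone calreticulin, Calr (-0.95 ± 0.45), and the chaperone BiP, Hspa5 (-0.85 ± 0.20; n = 5 each; limma adjusted p between 0.000656 and 0.00396). The mucous-cell stress sensor Ern2 (0.03 ± 0.16) and the secretory transcription factor Xbp1 (-0.05 ± 0.19) did not pass, with adjusted p-values of 0.76 and 0.636. These folding genes serve all secretory cells, and the part of each cell type in their values was not tested. Of 6 B cell markers, 5 passed on the negative side (3 without mouse 3 and 2 without mouse 5), with array medians between -0.70 and -0.12. Whether B cells that secrete had a part was not tested.

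Of 5 measured trefoil and goblet cell partner proteins, 3 passed on the negative side. Reg3g, a secreted antibacterial lectin, had log ratios of -2.20, -3.42, -2.24, -2.68 and -2.95 in mice 1 to 5. All 5 mice lay beyond -2, and the mean was -2.70 ± 0.51 (limma adjusted p = 0.000175). Bpifb1, a secreted protein of the same family as Bpifa1, stood opposite to it at -0.67 ± 0.57 (n = 4; adjusted p = 0.043), and Pigr, which carries IgA across the epithelium, at -0.33 ± 0.26 (n = 5; adjusted p = 0.0341). The call of Bpifb1 was lost without mouse 1, 2, 3 or 5 (adjusted p = 0.0685, 0.0759, 0.0569 and 0.0626) and that of Pigr without mouse 1, 2, 4 or 5 (0.0752, 0.0833, 0.0769 and 0.0867). With array weights both calls were lost (adjusted p = 0.0510 and 0.0570), which leaves 1 gene of this list, Reg3g. Mouse 4 had -1.50 for Bpifb1, against -0.54, -0.41 and -0.23 in mice 1, 2 and 3, and without mouse 4 the mean was -0.39 (adjusted p = 0.0219). Retnlb, a goblet cell protein of the gut and airway, gave -0.07 ± 0.20 and did not pass (adjusted p = 0.544). Clca3a1, the 1 other gene of the Clca family measured, gave -0.10 ± 0.10 (adjusted p = 0.194).

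Of 12 transcription factor and differentiation genes, 3 passed below 0 and 2 above it, with a median of -0.05. Ehf, an epithelial ETS factor related to Spdef, had -0.58 ± 0.18, and Sox2, a factor of the conducting airway, -0.48 ± 0.07 (n = 5 each; limma adjusted p = 0.00149 and 0.00077). Klf4 had 0.91 ± 0.20 on the positive side (adjusted p = 0.00055); it acts in goblet cells of the gut and in endothelium and other cells of the lung. Foxa3, a forkhead factor of goblet cells, gave -0.05 ± 0.19 and did not pass (adjusted p = 0.625). With any 1 mouse left out, 1 gene of this list passed on the positive side.

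Of 13 genes of interleukin-13 and EGF receptor signalling, 4 passed below 0 and 2 above it. The lipoxygenase gene Alox15 (-0.96 ± 0.53), Il5, the eosinophil growth cytokine (-0.84 ± 0.23), and Ereg, the EGF receptor ligand epiregulin (-0.75 ± 0.35), led the negative side (n = 5 each; limma adjusted p between 0.00085 and 0.00629). The receptor chains Il13ra1 (-0.03 ± 0.10, n = 5) and Il13ra2 (0.01 ± 0.11, n = 4) did not pass, and neither did Stat6 (-0.27 ± 0.42, n = 5; adjusted p = 0.194). Stat6 ranged between -0.96 in mouse 4 and 0.11 in mouse 2, so its mice lay on both sides of 0. The positive count of this list was 1 without mouse 2, 3 or 4.

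Of 24 genes of mucin O-glycosylation, 5 passed below 0 and 2 above it, with a median of -0.09. Slc35a1, which carries CMP-sialic acid into the Golgi, had -0.51 ± 0.25 and Gcnt3, which branches mucin sugar chains, -0.34 ± 0.09 (n = 5 each; limma adjusted p = 0.00587 and 0.00301). The sialyltransferase St3gal4 had -0.40 ± 0.31 (adjusted p = 0.027) and lost its call without mouse 3, 4 or 5 (adjusted p = 0.0918, 0.0813 and 0.0955), while the sialyltransferase St3gal2 had 0.63 ± 0.22 on the positive side (adjusted p = 0.00192). Galnt3, which starts mucin sugar chains, gave 0.01 ± 0.10 (adjusted p = 0.942). Without mouse 2 or mouse 5 the negative count was 3.

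Of 17 genes of granule release, 5 passed below 0 and 4 above it. The chaperone Hspa8 (1.92 ± 0.62), which has many roles besides exocytosis, and the granule SNARE gene Vamp8 (0.45 ± 0.09) were on the positive side, and the adenosine receptor gene Adora3 (-0.44 ± 0.18) on the negative side (n = 5 each; limma adjusted p between 0.000979 and 0.00409). Leaving out a mouse moved these counts: the negative count was between 1 and 7, moved by over 1.5 times without mouse 2, 3, 4 or 5, and the positive count was 2 without mouse 3 or mouse 5.

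Of 11 genes of ion and water transport at the airway surface, 2 passed below 0 and 4 above it. Slc26a4, the anion exchanger pendrin, had -3.31 ± 0.68 (n = 5; limma adjusted p = 0.000223), in the range of Tff2 and Muc5ac. The epithelial sodium channel subunit Scnn1a had 0.79 ± 0.32 and the water channel Aqp5 0.51 ± 0.22 on the positive side (n = 5 each; adjusted p = 0.00239 and 0.00405). Aqp5 is also a marker of alveolar type 1 cells. Of 7 measured markers of those cells, 5 passed on the positive side, Aqp5 itself among them, with Ager, Hopx, Cav2 and Cav1. The array medians of that list, Aqp5 included, were between 0.27 and 0.85. The part of those cells in these values was not tested. The positive count was 2 without mouse 2, 3, 4 or 5.

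**Figure D4:**
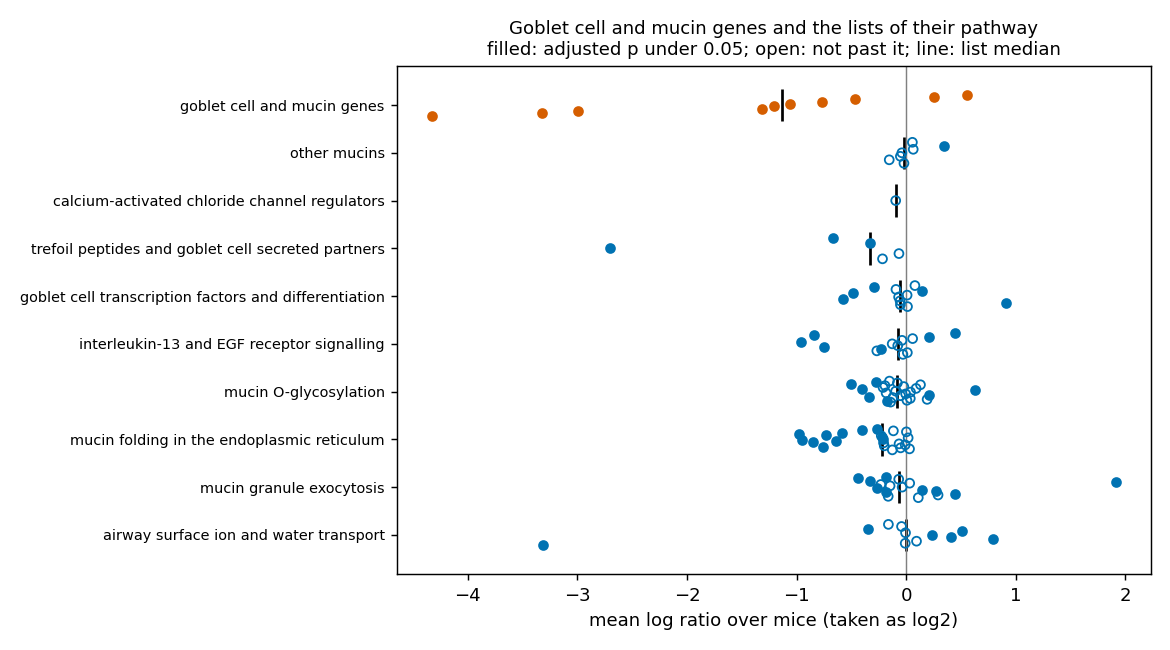
Mean log ratio over mice (taken as log2) of each measured gene, by list; filled points passed an adjusted p of 0.05, open points did not, and the vertical line is the list's median. The goblet cell and mucin genes have a median of -1.14, and the lists of their pathway have medians between -0.33 and -0.01.

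Markers of other airway and lung cells were read beside these genes. Their counts too stand beside 15.0% of all genes tested below 0 and 12.3% above it. Of 8 club cell markers, 3 passed above 0 and 1 below it, and the median of the list lay between -0.10 and 0.48 on single arrays. The club cell secretory protein gene Scgb1a1 had 0.70 ± 0.36 (n = 4; limma adjusted p = 0.00909), on the side of Bpifa1 and opposite to Muc5ac. Of 4 measured ciliated cell markers, 2 passed on the negative side, with list medians on single arrays between -0.26 and -0.01, and their transcription factor Foxj1 gave -0.08 ± 0.16 (n = 4; adjusted p = 0.469). Of 8 general epithelial markers, 4 passed below 0 and 2 above it, with array medians between -0.28 and -0.03. Of 6 tracheal and bronchial cartilage markers, 0 passed in limma on either side (2, both below 0, would pass at 0.05 without adjustment), with array medians between -0.13 and 0.03. Of 6 gland markers 1, Bpifb1, passed on the negative side, with array medians between -0.06 and 0.08. Markers of macrophages (7 of 9) and neutrophils (4 of 5) passed on the negative side, with array medians between -1.80 and -0.40 and between -1.18 and -0.44. Of 5 eosinophil markers, 3 passed below 0 and 1 above it, with array medians between -0.85 and -0.04. Of 5 basal cell markers 1, Krt14, passed below 0, and of 4 T cell markers 0 passed in limma on either side (0 without adjustment).

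Other lists moved on the positive side, that of Bpifa1 and Creb3l4. Of 4 adipose tissue markers, all 4 (Cox8b, Adipoq, Ucp1 and Lep) passed above 0, with array medians between 0.36 and 1.22. Of 5 alveolar type 2 cell markers, 3 passed above 0, with array medians between -0.05 and 0.31. Of 7 heart and skeletal muscle markers 2, Myl4 and Myl7, passed above 0, with array medians between -0.11 and 0.47. Several of these small counts moved by over 1.5 times with 1 mouse left out: muscle was 4 without mouse 1 and 1 without mouse 3 or 5, and 4 with array weights. The ciliated count was 1 without mouse 1 or 4, 0 without mouse 2 or 5, and 1 with array weights. The gland count was 0 with array weights and without mouse 1, 2, 3 or 5, and the basal count 0 without mouse 3, 4 or 5. The club cell count below 0 was 0 without mouse 2, 3 or 4, and the positive count of the epithelial markers was 1 without any 1 mouse. The eosinophil count above 0 was 0 without mouse 1, 2, 3 or 5. The part of these cell types and tissues in the goblet cell results was not tested.

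For 5 of the 10 genes, the genes of most similar ratios were looked up among 8034 genes with values on all arrays, by the root mean square difference of log ratios over the 5 arrays. Closest to Clca1 were Rnase2a, an eosinophil-associated ribonuclease (0.243), Retnla, encoding RELM-alpha (0.495), and Saa3, an acute-phase protein (0.765). Closest to Muc5ac were Reg3g (0.364), Slc26a4 (0.405) and Kctd9 (0.498). For Agr2 they were Sprr2a1 (0.162), Shcbp1 (0.231) and Mefv (0.238), for Spdef 4933433G08Rik (0.0745), Map3k7cl (0.0882) and Ret (0.0977), and for Bpifa1 Casp8ap2 (0.148), Crem (0.155) and Cd248 (0.160). The probe of Kctd9 has an ID 24 above that of Clca1, and the probe of Ret (mean -0.39) an ID 24 above that of Muc5ac. Probes 6, 18 or 24 IDs from a goblet cell gene's probe were therefore checked: of 43 with values, 0 were larger in size than the goblet cell gene's own and 3 were over 1 in size (Sar1a and Kctd9 beside Clca1, Fshr beside Muc5ac). Over all 9727 genes tested, 123 had a mean below -1. Clca1, Tff2 and Muc5ac ranked 2, 7 and 10 in size among all genes, so a larger neighbour was hardly possible for them.

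Promoter sequence was available for 6 of the 10 genes in the RefSeq table of assembly GRCm38.p6. The 250 bases before the start of Agr2, Spdef and Bpifa1 are shown, because Agr2 and Spdef lie on the negative side with Muc5ac, and Bpifa1 on the positive one. Letters are 5' to 3' on the gene's strand, and capitals mark matches to any of 3 motifs searched on both strands: the STAT6 motif, which is TTC and GAA parted by any 4 bases, a forkhead motif TNTTTAC and the TATA box TATAAA. The motifs do not overlap in these windows.
Agr2, chr12:35992675-35992924, plus strand: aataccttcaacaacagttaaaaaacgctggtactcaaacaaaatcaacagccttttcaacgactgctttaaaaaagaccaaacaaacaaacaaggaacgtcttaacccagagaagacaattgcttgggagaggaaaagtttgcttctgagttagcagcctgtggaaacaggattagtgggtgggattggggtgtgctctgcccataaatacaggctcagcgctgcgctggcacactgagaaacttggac
Spdef, chr17:27728952-27729201, minus strand: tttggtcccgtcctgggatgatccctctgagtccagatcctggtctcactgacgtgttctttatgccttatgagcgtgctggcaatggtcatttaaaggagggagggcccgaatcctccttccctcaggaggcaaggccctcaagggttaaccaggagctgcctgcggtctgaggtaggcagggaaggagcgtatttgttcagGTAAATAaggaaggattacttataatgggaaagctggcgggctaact
Bpifa1, chr2:154142630-154142879, plus strand: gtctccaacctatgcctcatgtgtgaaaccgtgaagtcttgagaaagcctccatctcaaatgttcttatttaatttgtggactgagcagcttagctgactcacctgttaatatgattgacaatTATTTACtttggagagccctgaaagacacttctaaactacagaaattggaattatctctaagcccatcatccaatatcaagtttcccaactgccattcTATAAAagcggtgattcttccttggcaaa
Spdef held a forkhead match 47 to 41 bases before its start, on the opposite strand. Bpifa1 held one 127 to 121 bases before its start and a TATA box 29 to 24 bases before it. Agr2 held no match to any of the 3 motifs. Over all 32851 promoter windows of this length, 5.85% held the STAT6 motif, 10.9% the forkhead motif and 12.4% the TATA box. Of the other windows of these genes, that of Muc4 held a TATA box 36 to 31 bases before the start, that of Itln1 held no match, and 1 of the 3 of Creb3l4 held a STAT6 match. A match is a string of letters, and no binding was measured here.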

How the data were processed

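Gene expression of lungs was measured on 2-colour arrays, 1 for each of 5 ova mice against the same pool of control lungs. The deposited table gives 1 signed ratio per probe and array, taken here as log2 without evidence for that base; the authors' background correction and normalization, the dyes and the log base are not stated in the sources used here. Between 11778 and 13320 of 17280 probes had a value on an array. No intensities were used, so the precision rests on the number of arrays.

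Probes were named from GEO's platform annotation (14722 with 1 symbol, 1 with several, 2557 with none). Of the first, 14445 had an identifier in the RefSeq gene table, which changed 0 symbols. Arrays were centred on their median, probes of a gene were averaged, and the 9727 genes with values on at least 4 arrays were tested against 0 with limma 3.58.1 in R 4.3.3 (lmFit, eBayes, two-sided, Benjamini-Hochberg over all genes, threshold 0.05). The pool counts as 1 control sample, so the spread among control mice is left out. The fit was also run on simulated data with independent noise and equal shifts on all arrays. That simulation lacked the shared pool and the smaller ratios of mouse 1, so it could not show how the fit treats them.

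The members and lists were chosen with earlier results of these data known. Genes named are the 10 members, in each pathway list the 3 genes past the threshold of largest mean size and a set of key genes, the 3 genes most like each of 5 members, and a few (the marker genes, Sar1a and Fshr) chosen after their values were seen. Alternatives changed the centring, spread, between-array normalization, values needed, probe averaging, probes near strong ones, array weights, variance prior and minimum size, and left out each mouse.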

Additional observations from a re-analysis of the deposited data

Results flagged for a closer look

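Of 47 named genes with 4 or 5 values, 4 had 1 mouse far from the others, where chance gives about 1 in 20. Spdef had -0.87 in mouse 2, against values between -0.44 and -0.28 in the other 4 mice. Sox2 had -0.61 in mouse 2, against -0.47 to -0.44 in the others. Aqp5 had 0.12 in mouse 1, against 0.56 to 0.69 in the others. Muc2 had 0.013 in mouse 1, against -0.23 to -0.19 in the 3 others that measured it.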

How the results depend on the processing

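All 10 goblet cell and mucin genes kept their side under each of the 16 alternatives that gave them a value (Tff2 and Muc5b have none with values required on all 5 arrays, which leaves 6 members on the negative side). Their calls held under all of these but limma's treat with a smallest size of 0.5, which asks for more than a difference from 0. There 3 members (Clca1, Tff2 and Muc5ac) passed below 0 and 0 above it (adjusted p of 1 for both Bpifa1 and Creb3l4), with 63 and 6 of all genes and 2 and 2 pathway genes. Without mouse 3, Bpifa1 and Creb3l4 passed only just (limma adjusted p = 0.0482 and 0.0496). With 1 mouse left out, 8 members passed below 0 and 2 above it each time, all genes gave 928 to 1429 and 671 to 1124, and pathway genes 22 to 34 and 9 to 14. These fits have fewer arrays. Of 743 values of 47 named genes under an alternative, 692 kept side and call, 40 lost the call (27 at the minimum size), 0 gained one, 0 called values changed side and 11 uncalled values changed sign. Depth is unknown, and why a probe has no value on an array is not stated in the sources used here. No paired analysis was possible because all mice are in 1 group.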
